A study of Mus musculus with 310 samples.

Results

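Actin filaments give epidermal cells their shape, hold them to the matrix and to each other, and push and pull when they move. Profilin, thymosins and cofilins feed or clear actin monomers, the Arp2/3 complex starts branched filaments at the leading edge, capping protein stops their growth, tropomyosins and myosin II make contractile bundles, and talin, vinculin and zyxin tie these to integrins. In keratinocytes the same genes serve the resting cortex as well as the crawling of cells out of hair follicles after injury, and the study asks how follicle cells respond to a wound long after it has closed.

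The members were 38 named genes of these families, chosen with earlier results of these data known, and all 38 were among the 14068 genes measured. They were followed in 310 libraries, labelled as single cells, of keratinocytes that carried tdTomato and were sorted from mouse tail epidermis, 145 of the group 38w and 165 of 38wUW. All mice carried Lrig1-EGFP-ires-CreERT2 together with Rosa26-fl/STOP/fl-tdTomato on a mixed CBA and C57BL/6 background, and all had been given hydroxytamoxifen once on the tail skin, before any wound. The reporter therefore marks cells that expressed Lrig1 at that time, and their descendants. The time given for both groups was 38 weeks, and the study compared repaired with age-matched skin, but the labels neither spell out UW nor say which group had been wounded. Every difference below is 38w relative to 38wUW, and its sense with respect to injury cannot be told.

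Each group held 2 replicates, and nothing in the labels says how many mice stand behind one, so p-values measure the spread between these samples. RepI (70 cells, on plates C114 and C118) and RepL (75 cells, on C119) made up 38w, and RepM (82 cells, C128) and RepN (83 cells, C129) made up 38wUW. A cell had a median of 61288 reads (11703 to 721532), and a replicate summed to between 5.47e+06 and 1.29e+07 reads. The names of 2 libraries, 1 on C119 (75390 reads) and 1 on C129 (79813 reads), end in MBULK. The study also made pooled mini-bulk libraries, and whether these 2 hold 1 cell each cannot be told. Without them 0 members passed the group test, as with them, and none changed sign. Of the 5 keratins Krt14, Krt5, Krt10, Krt17 and Krt79, at least 1 had a read in 309 of 310 cells. Of the markers of other cells, 5 of 6 fibroblast markers were in the table and summed to between 4.07 CPM (reads of a gene per 1e+06 reads) on C118 and 75.3 on C114, of which Dcn made up 74.6, and 2 of 6 immune, 1 of 5 smooth muscle and 2 of 4 melanocyte markers summed to at most 14.8 CPM on a plate. Of the endothelial markers, Kdr was at most 0.582 CPM, while Pecam1, which was left out of the summed levels, had reads in all 310 cells and 1168 to 8774 CPM on the plates. Plate C114 stood apart from the rest, where ribosomal protein genes took 31.8% of the reads of the median cell against 3.6% to 6.84% elsewhere. Mitochondrial genes took 2.77% there, 33.8% on C118, the other plate of RepI, and 9.69% to 18.3% on C119, C128 and C129. In sums over cells, fewer cells that use a gene and less RNA per cell cannot be told apart.

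The 38 genes together took 0.886% of all reads, and in single cells the median was 0.796% (0.195% to 1.95%). A median of 23 of the 38 had a read in a cell (13 to 34). Cytoplasmic actins led. Per kilobase of transcript, which allows genes to be compared, and as the mean of the 4 replicates, Actg1 (γ-actin) stood at 1094 ± 415 CPM (SD), Actb (β-actin) at 888 ± 720 and the monomer-binding Tmsb4x at 755 ± 321. The spread of these 3 overlapped, so their order is not fixed by the data. The myosin regulatory light chain Myl12a followed at 304 ± 76.5, and then the Arp2/3 subunit Arpc2 at 235 ± 86.6. The crosslinker Flna (3.93 ± 1.21), the myosin heavy chain Myh9 (3.66 ± 0.797), the integrin linker Tln1 (2.66 ± 0.421), Zyx (2.47 ± 1.29) and Vasp (1.78 ± 0.213) lay far below, and Myh10 was lowest at 0.142 ± 0.158. All of these are levels per kilobase of 1 coding transcript per gene, and another isoform would shift them.

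After each cell was thinned to 20000 reads, which 277 cells reached (138 of 145 in 38w and 139 of 165 in 38wUW), 4 members were found in over 90% of cells: Actb, Actg1, Tpm3 and Myl12a. Actb had a read in 276 of 277 cells (99.6%, Wilson 95% interval 98.0 to 99.9). At this depth 18 members were found in over 50% of cells and 5 in under 20%, the rarest being Myh10 in 7 of 277 cells (2.53%, 1.23 to 5.12) and Vasp, which speeds filament elongation, in 14 of 277 (5.05%, 3.03 to 8.30). These intervals and limits cover counting error only, since reads amplified by PCR without molecular identifiers are not independent molecules. Some wells of C114 are named by more than one cell. Shares, intervals and limits for C114, here and below, count such cells as separate. Unthinned, the shares were 4.52% for Myh10 and 12.3% for Vasp, so the shares rise with depth. Whether a cell without a read lacks the transcript cannot be told.

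Reads of some members could not be placed on 1 gene. The deposited counts are estimates in which a read that fits several transcripts is divided, and a value that is not whole shows such a division. More than 0.01 from a whole number were 79.4% of the nonzero values of Actb, 47.4% of Actg1, 88.9% of Tpm3, 60.3% of Myl12b, 40.8% of Myl12a and 39.9% of Arpc1b, while no other member had more than 8.55%. Values of these 6 genes are therefore less certain than those of the rest.

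**Figure D1:**
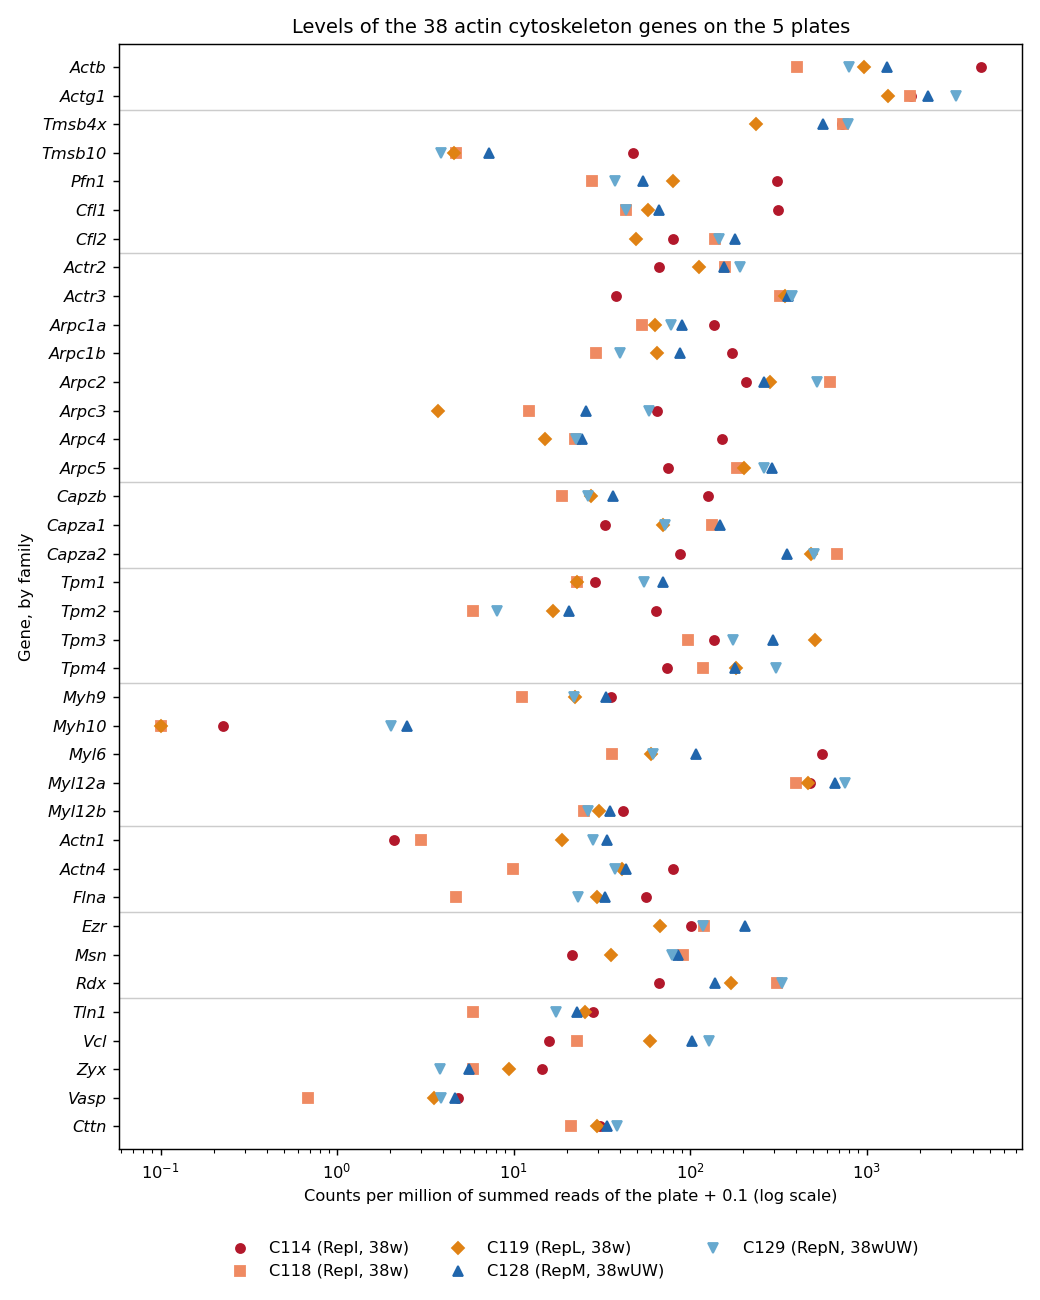
Level of each of the 38 genes on each of the 5 plates, in CPM of the plate's summed reads plus 0.1, on a log axis, with genes ordered by family and 1 symbol per plate. Dark red circles (C114) lie apart for many genes, to the right for Actb (4476 CPM), Myl6 (558) and Tmsb10 (47.2), and to the left for Actr3 (37.7) and Capza2 (87.4).

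Serum response factor, whose coactivator MRTF is held back by monomeric actin, is known to drive many cytoskeletal genes through a motif called the CArG box. To show where this motif lies among the members, the RefSeq windows from 250 bases before to 50 bases after a gene's start (GRCm38.p6) were searched for it. The motif is its own reverse complement, so both strands are covered. Of the 38 members 36 had an entry, all but Actb and Cttn, and 4 of the 36 held a CArG box (11.1%), against 488 of 27025 genes with an entry (1.81%). The boxes are printed in capitals, 5′ to 3′ on the strand of the gene.
Actg1, chr11:120348556-120348605, minus strand: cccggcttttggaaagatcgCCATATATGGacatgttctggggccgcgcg
Myl6, chr10:128493030-128493079, minus strand: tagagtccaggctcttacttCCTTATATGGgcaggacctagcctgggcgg
Vcl, chr14:20929151-20929200, plus strand: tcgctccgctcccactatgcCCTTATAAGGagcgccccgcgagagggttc
Arpc4, chr6:113377863-113377892, plus strand: CCTAATTTGGtgcccaacctgaggtcgggc
The box ends 81 bases before the start of Actg1, 41 before that of Myl6, 218 before that of Vcl and 241 before that of Arpc4. These are RefSeq starts, which can differ from the GENCODE gene positions used elsewhere. The Myl6 box lies inside the GENCODE gene (chr10:128490860-128494145, minus strand). A match is a description of these letters and no evidence that a factor binds there, and no match says only that the letters are not in this window.

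The comparison the study was designed for is that of the groups. None of the 38 genes passed the test (edgeR quasi-likelihood test on summed counts, Benjamini-Hochberg adjustment over 11757 genes, threshold 0.05), and none of the 11757 did, a background of 0%. At an unadjusted p under 0.05 there were 2 members, Myh10 and Pfn1, and 949 genes in all, while DESeq2 called 0 members and 67 genes (0.57%). The median log2 fold change was -0.08 over the 38 genes and 0.12 over all genes, with 18 members above 0 and 20 below. In 17 members the 2 replicates of 38w did not overlap those of 38wUW, 3 of them higher and 14 lower, against 38.8% of all genes, so 17 of 38 is close to the background. The members' summed share of reads was 1.0% and 0.619% in RepI and RepL and 0.837% and 0.941% in RepM and RepN, and the groups overlapped. Without plate C114 RepI was at 0.666%, so that both 38w replicates lay below both of 38wUW, and the difference of the means was -0.247 percentage points in place of -0.0788.

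The cells behind the groups differed in class, as judged by marker genes described further on. Infundibular and duct differentiated cells numbered 16 in 38w and 45 in 38wUW, bulge cells 11 and 39, basal cells 48 and 19, interfollicular differentiated cells 33 and 15 and sebaceous cells 9 and 13, with 28 and 34 not classed. Actg1, Tpm1 and Ezr, whose values were lower in both 38w replicates, had higher values in infundibular and duct differentiated cells than in the other cells of a plate. The part of these cell numbers in the group values was not tested.

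Of the actins, Actb (chr5:142903115-142906754, minus strand, here and below GRCm38) stood at 3756 CPM in RepI and 968 in RepL, and at 1304 in RepM and 794 in RepN, a log2 fold change of 1.43 ± 1.14 (SE, adjusted p = 0.743, edgeR). Within RepI it was 4476 CPM on C114 and 401 on C118, which were the highest and the lowest of the 5 plates. Actg1 (chr11:120345690-120348542, minus strand) stood at 1775, 1315, 2239 and 3211 CPM in RepI, RepL, RepM and RepN, with both 38w replicates below both of 38wUW (log2 fold change -0.56 ± 1.08, adjusted p = 0.900, edgeR). Its plates of RepI were alike, with 1776 CPM on C114 and 1771 on C118. So the balance of the 2 actins differed from plate to plate. Actb took a median of 71.8% of the actin reads of a cell on C114, 25.5% on C118, 52.6% on C119, 43.3% on C128 and 24.0% on C129. On C114 88.7% of cells had more Actb than Actg1 reads, and on C118 0 of 17 did, which allows a share of up to 17.6%. As shares of summed reads the replicates gave 67.9% and 42.4% in 38w and 36.8% and 19.8% in 38wUW. The means were 55.2% ± 18 and 28.3% ± 12 (SD, n = 2), and both 38w replicates lay above both of 38wUW, but C118 (18.5%) lay below every 38wUW plate. Since the proteins are nearly the same and reads of both genes were partly divided, the share is an estimate.

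**Figure D2:**
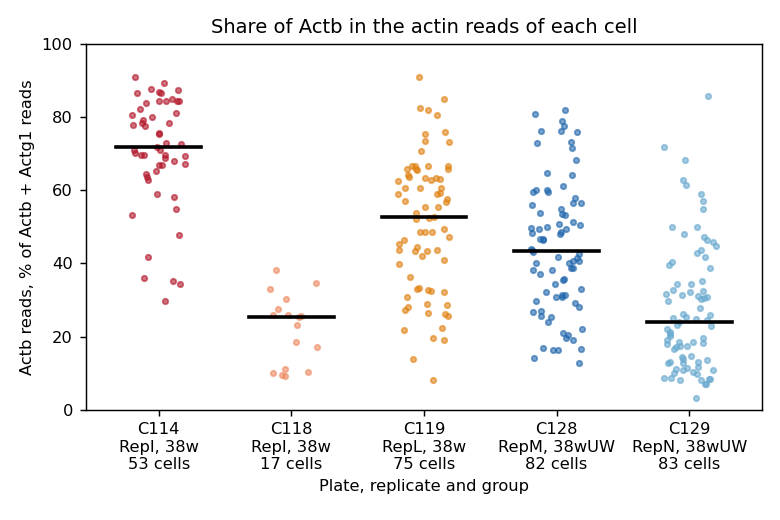
Share of Actb in the summed Actb and Actg1 reads of each cell, in percent, by plate, with 1 point per cell and a bar at the median of the plate. The medians run from 24.0% on C129 to 71.8% on C114, and the 2 plates of RepI, C114 and C118, lie on opposite sides.

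Among the genes that bind actin monomers, Pfn1 (profilin, which loads monomers with ATP and hands them to growing filaments) had the second lowest p of all members. It stood at 262 and 79.8 CPM in RepI and RepL and at 53.9 and 37.6 in RepM and RepN, with no overlap of the groups (log2 fold change 2.16 ± 0.91, unadjusted p = 0.0318, adjusted p = 0.615, edgeR). Plate C118, with 27.9 CPM, was below both 38wUW plates, and without C114 the log2 fold change was 0.48. Cfl1 (cofilin, which severs filaments) stood at 268, 57.9, 66.3 and 43.0 CPM in the order RepI, RepL, RepM and RepN, with 317 CPM on C114 against 43.0 on C118, and its log2 fold change of 1.84 was 0.13 without C114. Tmsb10 followed the same course, with 39.7, 4.48, 7.13 and 3.79 CPM, as 47.2 CPM on C114 and 4.65 on C118. Their paralogues did otherwise. Tmsb4x, the main monomer store of most cells, stood at 726, 238, 567 and 788 CPM, with 725 on C114 and 732 on C118, and Cfl2 stood at 90.5, 49.3, 180 and 146 CPM, lower in both 38w replicates (log2 fold change -0.97 ± 0.84, adjusted p = 0.765, edgeR). Cfl1 thus took 79.8% of the cofilin reads on C114 and 23.6% on C118, against 54.0%, 26.9% and 22.8% on C119, C128 and C129.

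The 8 genes of the Arp2/3 complex, of whose products each complex holds a single copy with either Arpc1a or Arpc1b, split into some that were high on C114 and some that were low. Arpc2, the most abundant, stood at 281, 282, 263 and 524 CPM in RepI, RepL, RepM and RepN, and the groups overlapped (log2 fold change -0.23 ± 0.89, adjusted p = 0.954, edgeR). Arpc5, a subunit on the study's list of cell plasticity genes, stood at 93.9, 203, 290 and 261 CPM, and Actr3, one of the actin-related proteins that give the complex its name, at 88.1, 347, 359 and 381. In both the 38w replicates lay below the others, and in both RepI was lowest, through C114 (74.5 CPM of Arpc5 and 37.7 of Actr3), while C118 held 184 and 323. Without C114 the log2 fold change of Actr3 was 0.11 in place of -0.53, and that of Arpc5 -0.26 in place of -0.65. Arpc4 went the other way, with 129.4, 15, 24.3 and 22.6 CPM, of which C114 had 152 and C118 22.1. Of the interchangeable pair Arpc1a and Arpc1b, the first stood at 122, 63.4, 90.3 and 78.3 CPM and the second, also a plasticity gene, at 148, 64.8, 87.2 and 39.9. Arpc1b took 54.9%, 50.5%, 49.1% and 33.8% of the reads of the pair in RepI, RepL, RepM and RepN. Arpc3 ranged on the other plates from 3.62 CPM on C119 to 58.4 on C129, against 65.2 on C114. Actr2 was lower in both 38w replicates, with 82.8 and 112 CPM against 155 and 192. In all, C114 was the highest plate for 4 subunits (Arpc1a, Arpc1b, Arpc3 and Arpc4) and the lowest for the other 4.

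Capping protein is a dimer of an α and a β chain. The β chain Capzb was highest on C114, with 126 CPM against 18.6 on C118, while both α chains were lowest there: Capza2 with 87.4 against 677 CPM and Capza1 with 33.0 against 133. Without C114 the log2 fold change of Capzb was -0.20 in place of 1.36, and that of Capza1 0.15 in place of -0.62. By replicate Capza2 stood at 192, 484, 356 and 502 CPM in RepI, RepL, RepM and RepN (log2 fold change -0.10 ± 0.92, adjusted p = 0.983, edgeR). Of the tropomyosins, which coat filaments and set their contacts with myosin, Tpm3 was the most abundant, with 129.2, 513, 294 and 176 CPM, and its 38w replicates enclosed those of 38wUW. Tpm1 was lower in both 38w replicates, with 27.7 and 22.8 CPM against 69.8 and 55.0 (log2 fold change -1.06 ± 0.86, adjusted p = 0.748, edgeR), and C114 and C118 agreed within this difference at 28.7 and 22.7 CPM. Tpm2 was highest on C114 (63.8 CPM) and lowest on C118 (5.82), with a log2 fold change of 1.55 that was -0.095 without C114, and Tpm4 had 82.0 and 183 CPM in 38w and 180 and 306 in 38wUW.

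In non-muscle myosin II, the motor of contraction, Myh10 had the lowest p of all members (log2 fold change -4.61 ± 1.79, unadjusted p = 0.0207, adjusted p = 0.615, edgeR), but from very few reads. There were 1 and 0 reads in RepI and RepL and 13 and 25 in RepM and RepN, in 1 cell of 38w and 13 cells of 38wUW. Per read of the group this is a ratio of 0.0312, with an exact 95% counting interval of 0.000770 to 0.185 that leaves out the spread between replicates. Myh9, the abundant heavy chain and a plasticity gene, stood at 31.1, 22.2, 33.4 and 22.0 CPM in RepI, RepL, RepM and RepN. The groups overlapped, and Myh9 made up at least 91.9% of the heavy chain reads in each replicate. The essential light chain Myl6 resembled Cfl1, with 466, 60.2, 108 and 61.3 CPM, made up of 558 on C114 and 36.1 on C118. The regulatory light chains were steadier. Myl12a stood at 466, 464, 667 and 760 CPM, lower in both 38w replicates (log2 fold change -0.37 ± 0.92, adjusted p = 0.924, edgeR), and Myl12b at 38.9, 30.3, 35.1 and 26.4.

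Among crosslinkers and membrane linkers, Actn1 (α-actinin, a plasticity gene) stood at 2.16, 18.6, 33.6 and 28.2 CPM in RepI, RepL, RepM and RepN. It was low on both plates of RepI, with 1.999 CPM on C114 and 2.91 on C118, and in thinned cells it was found in 0 of 51 cells of C114, which allows a share of up to 5.88%, against 14 of 64 (21.9%, Wilson 95% interval 13.5 to 33.4) on C128. Actn4 stood at 67.8, 40.9, 43.3 and 37.5 CPM and Flna (filamin, a plasticity gene) at 47.2, 29.5, 33.1 and 23.1, and in both C114 was the highest plate and C118 the lowest. The ERM proteins, which link filaments to the membrane, were not highest on C114 in any case. Msn was lower in both 38w replicates, with 33.6 and 35.7 CPM against 85.0 and 78.9 (log2 fold change -0.99 ± 0.84, adjusted p = 0.761, edgeR), yet C118 had 90.7, and without C114 the log2 fold change was -0.11. Rdx, the one with the most reads, stood at 109, 171, 139 and 334 CPM, and Ezr at 104, 67.1, 205 and 117.9. Together the 3 ERM genes took 261 CPM ± 18.8 in 38w and 480 ± 72.0 in 38wUW (SD, n = 2), with 519 on C118.

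At focal contacts, Vcl (vinculin) was lower in both 38w replicates, with 17.1 and 59.5 CPM against 102 and 127 (log2 fold change -1.34 ± 0.90, adjusted p = 0.696, edgeR), and all 3 plates of 38w lay below both of 38wUW. Zyx was higher, with 13.0 and 9.31 CPM against 5.48 and 3.71, on all 3 plates (log2 fold change 1.53 ± 1.10, adjusted p = 0.717, edgeR). Tln1, Vasp and Cttn (cortactin, which steadies branched filaments) differed little between replicates, from 17.2 to 25.2, 3.45 to 4.57 and 28.9 to 38.7 CPM. Tln1 was higher and Cttn lower in both 38w replicates. The plates of RepI differed more, with 28.0 CPM of Tln1 on C114 and 5.82 on C118, 4.75 and 0.58 of Vasp, and 30.6 and 20.9 of Cttn. No difference between the groups in these genes passed the test.

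The labels carry a batch tag and an alternative one, which exchange plates C128 and C129 between the batches called Replicate1 and Replicate2. Within each batch, 38w lay below 38wUW under both tags for 14 members (36.8%, against 25.5% of all genes) and above it for 2, Pfn1 and Zyx (5.26%, against 11.6%). The 14 were Actg1, Cfl2, Actr2, Actr3, Arpc5, Tpm1, Tpm4, Myh10, Myl12a, Actn1, Ezr, Msn, Vcl and Cttn. For Actb the within-batch log2 differences were 1.78 (C114 against C128) and 0.08 (C118 and C119 against C129), and with the alternative tag 2.49 and -0.64. Those of Cfl1 were 2.25 and 0.34, or 2.87 and -0.28, those of Myl6 2.36 and -0.16, or 3.18 and -0.98, and those of Arpc4 2.62 and -0.43, or 2.73 and -0.54. In each of these 4 genes the large difference was that of the batch with C114.

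**Figure D3:**
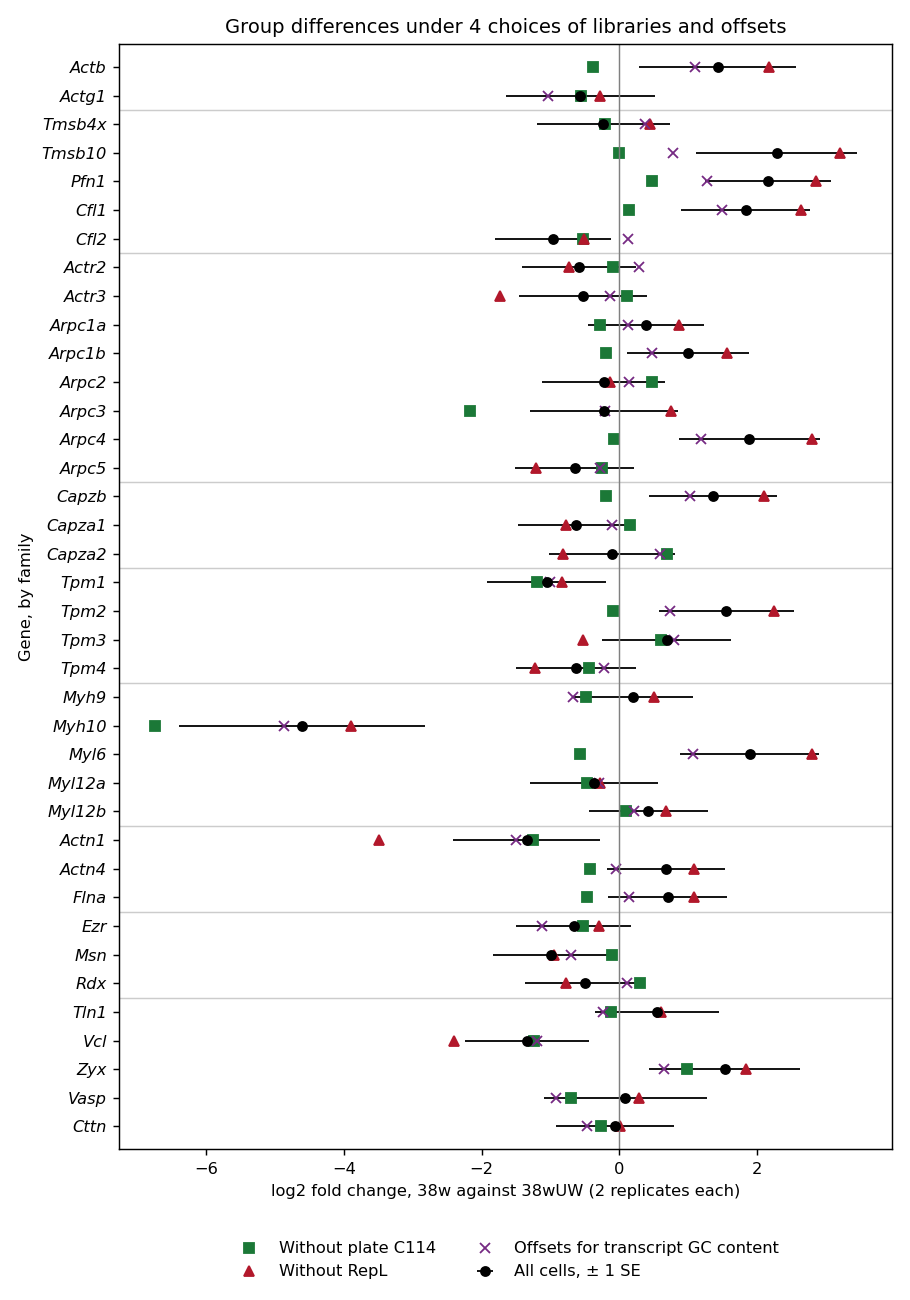
Log2 fold change of each gene, 38w against 38wUW, from all cells with 1 SE (black), without plate C114 (green squares), without RepL (red triangles) and with offsets for transcript GC content (purple crosses). With all cells the values of Actb, Tmsb10, Arpc4 and Myl6 lie between 1.43 and 2.29, and without C114 all 4 lie at or below 0.

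Plate C114 was above all 4 other plates for 18 of the 38 genes, against 29.5% of all genes tested, and below all 4 for 11, against 35.1%. Between C114 and C118, cells of the same replicate, the median absolute log2 difference was 1.82 over the members, and in 27 of 38 members (71.1%) it exceeded the absolute log2 fold change of the groups. The same held for 72.8% of all genes. The genes high and low on C114 differed in base composition. The 18 highest had transcripts of 49.8% to 58.7% GC (median 54.0%), the 11 lowest 39.3% to 53.0% (median 45.9%), and all 11503 genes with a value had a median of 49.5%. Across genes, the log2 difference of C114 from the mean of the other plates went with transcript GC content at Spearman's rho = 0.635 over the 11503 genes and 0.678 over the 38 members. These are descriptions over genes that share the same 5 plates. The rho with the length of the 3′ untranslated region was -0.379 over all genes and -0.442 over the members. None of the other plates, set against the remaining 3 without C114, went beyond 0.186 in either direction with GC content over all genes, but over the 38 members C118 reached -0.522 and C119 0.526. The log2 fold change of the groups itself went with GC content at 0.452 over all genes and 0.580 over the members. Whether the base composition of transcripts has a part in the group values was not tested beyond the offsets below.

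**Figure D4:**
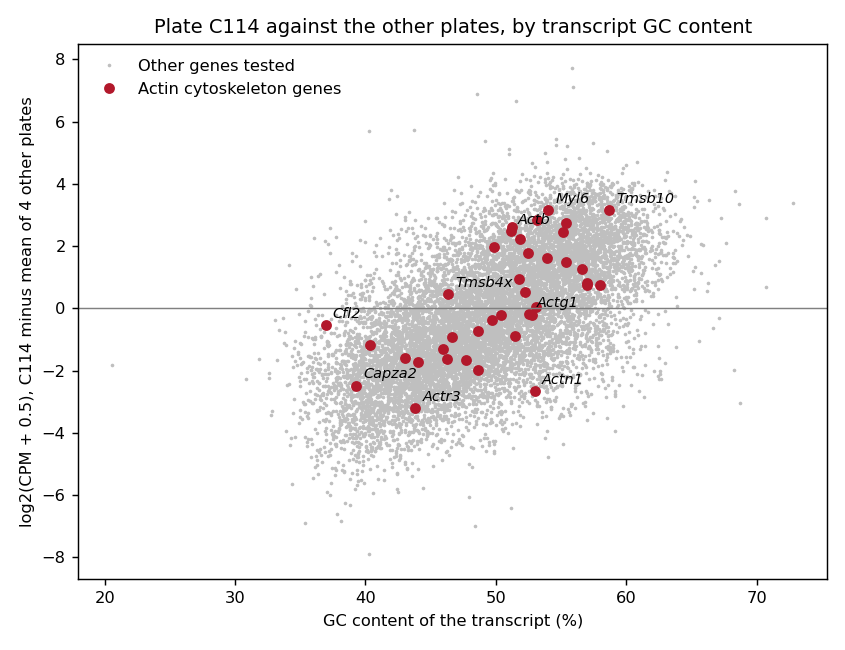
Difference of plate C114 from the mean of the 4 other plates, as log2(CPM + 0.5), against the GC content of the transcript, with 1 point per gene and the 38 members in red. Members with GC-rich transcripts such as Tmsb10 and Myl6 lie high, those with GC-poor ones such as Capza2 and Actr3 lie low, and Actn1 lies low at 53.0% GC.

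The difference of C114 was also present within single cell classes. Cells were classed by the highest score over markers that include no member, which placed 67 basal, 48 interfollicular differentiated, 61 infundibular and duct differentiated, 22 sebaceous and 50 bulge cells and left 62 without a class. Of the 18 genes highest on C114, 14 were also highest there among basal cells, 12 among interfollicular differentiated and 13 among infundibular and duct differentiated cells. Of the 11 lowest there, 7, 5 and 7 were also lowest within these classes. C118 had too few basal and infundibular cells, which leaves 4 plates there, and the 18 and 11 genes were chosen over cells that include these, so the counts are descriptions. Actb took 77.1% of the actin reads of basal cells on C114 and 23.4% to 50.6% on the other plates. With offsets that take out each replicate's trend with GC content, the log2 fold change was 0.77 in place of 2.29 for Tmsb10, 1.07 in place of 1.89 for Myl6 and 1.49 in place of 1.84 for Cfl1, and 10 of 38 members changed sign. Without plate C114, 18 of 38 changed sign. With either change none of the 38 passed the test.

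The calls changed when 1 library was left out. Without RepL, which leaves RepI as the lone 38w replicate with its spread taken from 38wUW, 7 members passed the test: Actb, Tmsb10, Pfn1, Cfl1, Arpc4 and Myl6 higher and Actn1 lower (adjusted p from 0.00179 to 0.0421, edgeR), among 1223 of 12931 genes (9.46%). In each of the 7, C114 was the highest or the lowest of the plates, as it was in 29.5% and 35.1% of all genes tested. C114 gave 8.00e+06 of the 9.72e+06 reads of RepI. This outcome was therefore largely fixed by leaving out RepL and is a description.

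Cell classes were compared within plates, so that plate differences cancel. All markers of each class were higher in that class than in the other classed cells. The classes were set by these same markers, so this was largely fixed in advance and is no check of them. In infundibular and duct differentiated cells, which line the upper follicle and the gland ducts, Actg1 was the 1 member of 37 tested that passed the test (Myh10 fell under the filter on low counts), and it was higher. On plates C114, C119, C128 and C129 it stood at 3877, 1914, 3151 and 5185 CPM in the class and at 1331, 1247, 1778 and 2454 in the other classed cells. Each plate showed the difference, and the log2 fold change was 1.04 ± 0.28 (adjusted p = 0.0482, edgeR, n = 4 plates, C118 having too few cells). Of all genes 4.33% passed in this class, 1.81% as higher. Over 10 alternatives its adjusted p ran from 0.0244 to 0.172, and 4 of them called it. Other members had higher values without passing. Tpm1 had 123, 29.4, 170 and 75.8 CPM on the 4 plates against 9.86, 24.9, 20.5 and 8.99 (log2 fold change 2.64 ± 0.76, adjusted p = 0.0680, edgeR), and 3 of 10 alternatives called it. Ezr had 169, 153, 337 and 272 CPM against 90.8, 55.9, 163 and 67.1 (1.37 ± 0.48, adjusted p = 0.127, edgeR), and Actb 5798, 1735, 1928 and 1218 against 4222, 937, 973 and 647 (0.83 ± 0.28, adjusted p = 0.110, edgeR). The median log2 fold change was 0.34 over the 37 members and -0.37 over all genes. Median depth was 66743 reads in the class against 144052 in the others on C114, 81406 against 131981 on C129, and differed less on C119 and C128. Its ribosomal and mitochondrial shares were lower on every plate. The part of these in the result was not tested.

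**Figure D5:**
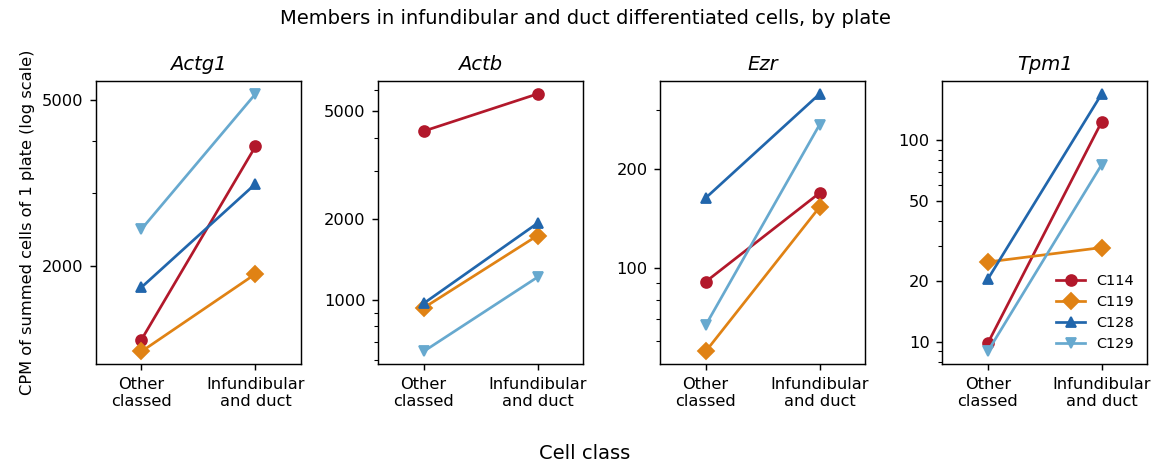
Levels of Actg1, Actb, Ezr and Tpm1 in infundibular and duct differentiated cells and in the other classed cells of the same plate, in CPM of summed cells on log axes, with 1 line per plate. All 16 lines end higher on the right, that of Tpm1 on C119 by least (29.4 against 24.9 CPM).

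In the other classes no member passed the test with edgeR. Among basal cells, which hold the stem cells and touch the basement membrane, 1 of 37 members had an unadjusted p under 0.05. Over all genes 1295 did, and 1.2% of the 10978 tested passed after adjustment. DESeq2 called 739 genes among basal cells, and 0 members. Cfl2 had lower values there on 3 of 4 plates (log2 fold change -1.67 ± 0.69, adjusted p = 0.334, edgeR), with 25.1, 20.96, 30.5 and 171 CPM on C114, C119, C128 and C129 against 138, 65.5, 186 and 159. In interfollicular differentiated cells, the suprabasal cells of the surface epidermis, 2 of 37 had an unadjusted p under 0.05 (1284 genes in all, 0.51% passing). Tpm1 had 2.88, 1.97, 3.57, 12.2 and 3.04 CPM on C114, C118, C119, C128 and C129 against 44.9, 37.3, 29.6, 82.3 and 31.3, a log2 fold change of -3.03 ± 0.78 (adjusted p = 0.121, edgeR). DESeq2 called Tpm1 alone of the members, among 518 genes (4.98%). Tpm1 values thus lay on opposite sides in the 2 differentiated classes, but each class is part of the comparison group of the other.

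Among sebaceous cells, which fill with lipid and burst, 26 of 37 members had values below those of the other cells, with 4 at an unadjusted p under 0.05 (1273 genes in all, 1.63% passing). Tmsb4x had 38.2, 209 and 293 CPM on C119, C128 and C129 against 259, 568 and 785 (log2 fold change -2.08 ± 0.59, adjusted p = 0.0926, edgeR). DESeq2 called 509 genes in this class, and 0 members. With DESeq2 size factors the median of all genes in it moved from -0.41 to -0.24, so values are to be read against that median. For bulge cells, the resting stem cells of the lower follicle, 30 of 37 members lay below 0, 1 at an unadjusted p under 0.05 (775 genes in all, 0.0745% passing), with a median of -0.69 against -0.41 over all genes. This was Ezr, with 8.02, 138 and 37.0 CPM on C119, C128 and C129 against 75.9, 285 and 193. DESeq2 called 409 genes among bulge cells, and no member.

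The study sorted cells with an antibody to the glucose transporter Glut1, the product of Slc2a1, at an earlier time after wounding. It then tracked their migration in culture. Here only RNA at 38 weeks was at hand, from cells that were not cultured. Cells with an Slc2a1 read at 20000 reads were set against those without, within plates. A cell without a read can still hold the transcript or the protein, so this split is not that of the study. There were 15, 7, 28, 26 and 16 such cells on C114, C118, C119, C128 and C129, against 36, 10, 42, 38 and 59 without. None of the 35 members tested passed, and none had an unadjusted p under 0.05 (360 of 7678 genes did, 0.104% passing after adjustment). DESeq2 called 0 members and 11 genes. The median log2 fold change was -0.02 over the members and -0.12 over all genes. The lowest p was that of Tpm2, with 50, 14.3, 41.1, 51.9 and 37.5 CPM against 52.8, 5, 20.2, 18.4 and 6.78 (log2 fold change 1.06 ± 0.59, adjusted p = 0.998, edgeR). For members with errors of this size a difference of 1 on the log2 scale could not be told from none. Errors were smaller for abundant members, such as Actb (log2 fold change 0.02 ± 0.18) and Actg1 (0.07 ± 0.21).

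Of 50 further regulators of actin and integrin adhesion that are no members, 47 were in the table. Between the groups 44 were tested, 0 passed and 0 had an unadjusted p under 0.05 with edgeR, and the 2 replicates of 38w lay above those of 38wUW in 4 and below in 14, a share close to the 38.8% of all genes. In the classes 1 passed, of 43 tested in a class where 4.33% of all genes did: Itgb1, the β1 integrin chain that anchors basal cells, was lower in infundibular and duct differentiated cells (log2 fold change -3.04 ± 0.80, adjusted p = 0.0459, edgeR).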

How the data were processed

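Libraries of single cells followed Smart-seq2 with modifications (oligo-dT priming, fragments along the transcript, no molecular identifiers). The authors quantified reads with Salmon 0.13.1 on a mouse transcriptome of GRCm38, and the deposited values are estimated counts of each gene in each cell, not normalized. Per the study's methods, cells under 1000 genes or over 50% mitochondrial reads were removed. Doublets were not called, because wells were meant to hold 1 cell. The names of 15 cells carry a suffix the labels do not explain (13 IDTILL on C114, 2 MBULK), and some wells of C114 are named by more than one cell. All were kept, and alternatives left out the 15 or the 2.

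Estimated counts were rounded per cell and summed per replicate (n = 2 against 2), or per plate for cell classes and Slc2a1 with plate as block and at least 5 cells on both sides. The 5 plates stand for 4 replicates, as C114 and C118 are both RepI. Tests were edgeR 4.0.16 quasi-likelihood fits in R 4.3.3 (TMM factors, filterByExpr) over all genes, with DESeq2 1.42.0 as an alternative. The edgeR test returns no SE. The SE given is the absolute log2 fold change divided by the square root of the F statistic of that test. The tests were also run on simulated counts, drawn with no plate or GC differences in gene levels. This cannot show how they behave with differences such as those of C114. A cell took the class of its highest mean marker z-score if that was above 0 and 0.2 above the next. Logs of plate values used a pseudocount of 0.5 CPM. Gene positions, transcript lengths and GC content came from GENCODE M21 on GRCm38, with 1 coding transcript per gene. Values in full are given for members past a threshold, the 6 of lowest p between groups, the most abundant of each family, 6 paralogue pairs and members on the study's cell plasticity list, and others were added after their values were seen. The members and all lists were chosen with earlier results of these data known.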

Additional observations from a re-analysis of the deposited data

How the results depend on the processing

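With 2 replicates a group, no member passed the test between the groups under any of the 17 alternatives but 1: leaving out each replicate in turn gave 0 to 7 members, the 7 without RepL. Over all genes 1223 passed without RepL, 125 without RepI, 67 with DESeq2 and 0 to 4 otherwise. The log2 fold changes of named members under the alternatives were counted over the group and class comparisons together. Of these, 404 stayed called or uncalled with the same sign, 13 became called and 6 lost the call. As no member was called between the groups, a call could be lost only in a class. The other 40, all between the groups, changed sign, and the cause was not tested. Without plate C114 these were Tmsb10 (-0.00073), Myl6 (-0.57), Arpc4 (-0.082), Actb (-0.38), Arpc1a (-0.28), Arpc1b (-0.19), Myh9 (-0.48), Flna (-0.47), Actn4 (-0.42), Arpc2 (0.47), Capza2 (0.70) and Rdx (0.29). With offsets for transcript GC content, added once the values were known, they were Tmsb4x (0.37), Arpc2 (0.14), Capza2 (0.59), Rdx (0.11), Cfl2 (0.13), Actn4 (-0.050) and Myh9 (-0.67). With plates as units and the batch tag as a block they were Tmsb4x (0.070) and Arpc2 (0.071), and with the alternative tag Tmsb4x (0.15) and Arpc2 (0.17). With equal weight per cell they were Arpc2 (0.13) and Myh9 (-0.20), and with cells thinned to 20000 reads Arpc2 (0.060) and Myh9 (-0.024). Leaving out each replicate in turn gave ranges across 0 for Tmsb10 (-0.045 to 3.21), Myl6 (-0.26 to 2.80), Arpc4 (-0.41 to 2.80), Tmsb4x (-1.28 to 0.44), Arpc2 (-0.62 to 0.33), Capza2 (-0.82 to 0.41), Tpm3 (-0.52 to 1.36), Rdx (-0.98 to 0.25), Arpc1a (-0.18 to 0.87) and Myh9 (-0.092 to 0.55).

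Among classes, infundibular and duct differentiated cells had 1 member called, and 0 without plate C114. Leaving out each replicate in turn gave 0 to 1. With no low-count filter or with DESeq2 there were 2, and DESeq2 called 1454 of the 11016 genes tested. Interfollicular differentiated cells had 1 member called with DESeq2 (Tpm1) and sebaceous cells 1 with no low-count filter (Tmsb4x), against 0. Bulge and sebaceous cells of RepI were too few to enter, so leaving it out changed nothing there. Members found in over 50% of cells were 18 at 20000 reads, 11 at 10000 and 24 unthinned. The group difference in the summed share of reads moved by less than the SD of the 38w replicates (0.271 percentage points) under each alternative. It moved by more than the SD of 38wUW (0.0733) without plate C114, without RepI and without RepL. The 38w SD itself was 0.0333 without C114. The difference turned from -0.0788 to 0.113 percentage points without RepL. Without ribosomal protein and mitochondrial genes the means were 1.18% and 1.24% in place of 0.810% and 0.889%. The replicate letters of the groups pair no samples. The batch tags are shared between the groups but disagree on C128 and C129, and as a block over plates they gave 0 members with 1 gene, or 0 with 4 genes for the alternative tag.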
